A study of Solanum lycopersicum with 6 samples.

Results

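The comparison described here sets the shoot apex of the tomato leafless (lfs) mutant against the wild-type (WT) apex, in RNA-sequencing libraries of which 4 of the 6 in the series belong to these genotypes. The members are the lfs and WT libraries, 2 of each, chosen by genotype label, and the genes described are chiefly those whose 2 lfs values both lay above, or both below, the 2 WT values, with relatives whose values overlapped given beside them. The lfs libraries came from mutant seedlings with no treatment named and, by the labels, held the shoot apical meristem alone. The other 2 libraries came from pin-shaped shoots that formed after spraying with 1 mM TIBA, which blocks the directed transport of auxin between cells; they too held only the meristem, and no genotype is named for them. The WT libraries came from seedlings with no treatment named and held the meristem together with the 2 youngest leaf primordia. All seedlings had spent 14 to 18 days in a greenhouse, tissue was fixed in acetone before dissection, and libraries were made with a TruSeq RNA kit. The sources used here do not give the lfs allele, the parental line, the number of apices pooled or the origin of the repeats. The p-values therefore measure only how far these libraries differ from each other, and that spread may be technical.

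The shoot apical meristem keeps a small pool of stem cells at its summit and releases cells at its flanks, where local auxin maxima mark the sites of new leaves. Class I KNOX genes are active in the undifferentiated centre, YABBY genes in the lower side of the young leaf, and boundary genes in the crease between meristem and leaf. When a plant flowers, MADS-box genes take over the identity of the meristem and of the organs it forms. LFS itself encodes an AP2-type transcription factor, and plants lacking it stop forming leaves after the cotyledons.

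The values are DESeq2-normalized counts, that is, reads per gene divided by 1 factor per library, and they are given below as replicate 1 then replicate 2 of each group. Because a longer gene collects more reads, levels are compared between libraries and not between genes. Log2 changes are lfs over WT on the scale log2(normalized count + 1), with a standard error (SE). A gene was called when its Benjamini-Hochberg adjusted p, from limma across all 19807 genes tested, was under 0.05; adjusted p-values below are from that fit. Recovered reads numbered 17640302 to 26054787 per library. Replicates differed by a median SD of 0.16 log2 units in lfs, 0.23 in TIBA and 0.092 in WT. Across genes, lfs libraries correlated with WT libraries between 0.899 and 0.922. Within groups the correlation was 0.975 in lfs, 0.962 in TIBA and 0.990 in WT.

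Gene names need a caution. The deposited table gives identifiers without names, and 0 of its 34722 identifiers matched the RefSeq gene table (assembly SLM_r2.1). The names below pair identifiers with published tomato genes as remembered, not as the files state. Of 146 identifiers so listed, LFS included, 115 had a symbol in the RefSeq table, and for 110 of them the symbol lay on the chromosome that the identifier carries and in the same order along it. The 31 not found and the 5 out of place are given by identifier, with the remembered name in brackets where one is given. Reads of close relatives within a family could be split by the counting, so members such as YABBY1a and YABBY1b share this uncertainty.

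LFS (Solyc05g013540.1, on chromosome 5 by its identifier) stood at 3031 and 3886 normalized counts in lfs libraries, 582 and 338 in TIBA libraries, and 707 and 711 in WT libraries. Both lfs values were above all 4 others. The transcript was 4.88-fold higher in lfs than in WT by the means (log2 2.27, SE 0.26, adjusted p = 0.0025), and the log2 change lay between 2.10 and 2.45 when 1 lfs or WT library was left out. In the authors' deposited table the log2 change was 2.29 with an adjusted p of 1.04e-07. What the lfs allele does to its transcript is not given in the sources used here, so this level does not check the genotype labels. Among the 10 identifiers on either side of LFS, 11 were tested, of which 4 rose and 1 fell, with log2 changes from -1.73 to 2.42; of all tested genes 8.9% were called higher and 5.29% lower.

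Across the genome, 6651 genes (33.6%) had both lfs values above both WT values and 6550 (33.1%) had both below. Limma called 2810 genes (14.2%), 1762 higher in lfs (8.9%) and 1048 lower (5.29%), and in each of the 2810 the groups did not overlap. Leaving out WT replicate 1 gave 562 calls and leaving out WT replicate 2 gave 886. Dropping lfs replicate 1 left 1030 and dropping lfs replicate 2 left 1568. With 1 TIBA library dropped from the shared estimate of spread, the calls numbered 4410 (replicate 1) and 4428 (replicate 2). With 1 library left in a group the estimates are less precise, so a call lost in such a fit need not mean a changed log2 value. In the full fit the median log2 change of all tested genes was -0.001, with quartiles at -0.29 and 0.36.

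Small shifts filled most of the non-overlapping set. At 2-fold or more, 1938 non-overlapping genes were higher and 929 lower, and of these 1265 and 593 were called. At 8-fold or more the non-overlapping genes numbered 358 higher and 215 lower, with 334 and 204 called. At 32-fold or more the order turned round, with 63 higher and 80 lower, all of them called. No read in either WT library, with at least 10 normalized counts in both lfs libraries, was seen for 37 genes, and the reverse for 51.

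**Figure D1:**
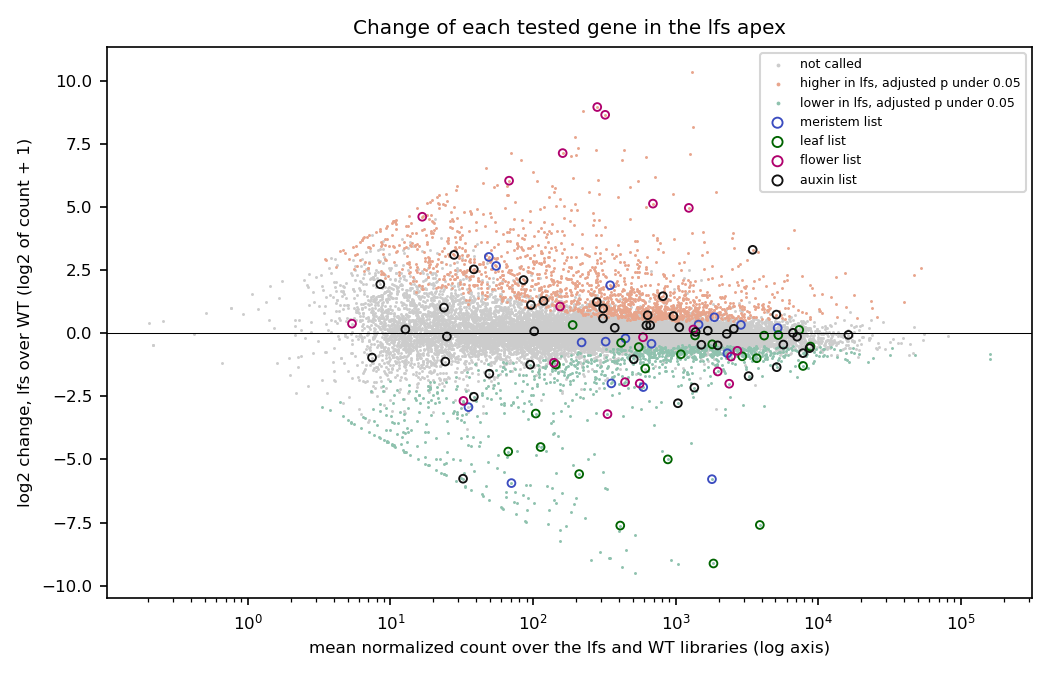
Log2 change of lfs over WT (vertical axis) against the mean normalized count over the lfs and WT libraries (horizontal log axis) for 19807 tested genes, with called genes coloured and listed genes ringed. Listed leaf genes reach down to -9.12 and listed flower genes up to 8.97, both at the edge of the cloud.

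The extremes outside the lists carry no name in the sources used here. They were picked as the largest changes among called genes whose groups did not overlap. The gap between the groups was thus set by the choice, and the intervals below do not allow for it. Solyc06g062370.2 stood at 720.2 and 4474 in lfs and at 0 and 0.867 in WT, where 1 read was found, a ratio of 6355 (exact 95% interval 1140 to 251060, counting error only). The lfs libraries differed widely from each other. For this gene the log2 change of 10.36 was 11.68 without lfs replicate 1 and 9.04 without replicate 2. Solyc04g082910.1 had 422 and 470.0 in lfs and no read in WT, at least 169-fold higher against a floor of 3 reads in each WT library. In the other direction, Solyc10g074440.1 had 1.01 and 0 in lfs and 975 and 1099.6 in WT, a ratio of 2302 (exact 95% interval 413 to 90973, counting error only), while Solyc03g114560.2 had 0 and 0.813 in lfs and 998 and 672 in WT (ratio 1846, exact 95% interval 331 to 72941). Each had 1 read over the lfs libraries. In TIBA libraries the genes that rose had 280 and 193 (Solyc06g062370.2) and 546 and 693 (Solyc04g082910.1). Those that fell had 500 and 1038 (Solyc10g074440.1) and 3212 and 3167 (Solyc03g114560.2) in TIBA.

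Of 127 listed genes of meristem, leaf, flower and auxin biology, 105 reached the minimum of 10 normalized counts in 2 libraries. The groups did not overlap for 83 of these, with lfs above WT for 31 and below for 52, and 50 were called (47.6%), 18 higher and 32 lower. The corresponding shares over all tested genes were 66.6% not overlapping and 14.2% called. The lists were chosen with earlier results of these data known, and some members reached the minimum only through groups where they were high. The distance from the shares over all genes is therefore no test of the lists, here or below. The median log2 change of the listed genes was -0.20. In the authors' deposited table, 53 listed genes had an adjusted p under 0.05, 20 higher and 33 lower, and 49 of these were among the 50 called by limma. Leaving out WT replicate 1 lowered the 50 to 26, and leaving out WT replicate 2 lowered it to 27; 25 of the 50 were called whichever lfs or WT library was left out.

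Leaf genes fell or did not pass the test, and none rose. Of 25 listed, 23 were tested, 12 fell, and 18 had both lfs values below both WT values, against 0 above. Solyc03g118770.2, counted among the falls, reached the minimum count only through the WT libraries, where it was high. Its fall is therefore no result about the list. Over all tested genes 5.29% were called lower, 33.1% lay below and 33.6% above. The median log2 change of the tested leaf genes was -0.98. Since only the WT tissue held leaf primordia, the genotype and the dissected tissue cannot be told apart, here or in the other gene groups. In bulk tissue, fewer cells of a type also cannot be told apart from less RNA per cell.

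The YABBY genes, which mark the lower side of lateral organs, had the lowest median of the families listed, -4.99 on the log2 scale. Of their 7 tested members 6 fell, against 5.29% of all tested genes called lower. Their summed level over 9 members was 202 and 245 in lfs libraries, 656 and 440 in TIBA libraries, and 14116 and 14190 in WT libraries. YABBY1b (Solyc08g079100.2) had 3.04 and 9.76 in lfs, against 3739.9 and 3608 in WT. That is 574-fold lower by the means (log2 -9.12, SE 0.48, adjusted p = 0.00022), and the log2 change was -8.42 without lfs replicate 1 and -9.83 without replicate 2.

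YABBY1a (Solyc01g091010.2) had 43.6 and 35.0 in lfs, against 7671 and 7815 in WT, 197-fold lower (log2 -7.60, SE 0.66, adjusted p = 0.00091). YABBY5a (Solyc07g008180.2) had 46.6 and 59.4 in lfs and 1672 and 1744 in WT. Each group was tight, and the distance between the groups was far wider than the spread inside either. YABBY2a (Solyc06g073920.2) had 5.06 and 11.4 in lfs and 419 and 406 in WT, and YABBY2b (Solyc11g071810.1) had 9.12 and 8.13 in lfs and 211 and 224 in WT. YABBY5b (Solyc12g009580.1) fell by 3.18 on the log2 scale, to 23.3 and 17.1 in lfs against 188 and 189.8 in WT. All 6 calls held whichever lfs or WT library was left out.

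CRCa (Solyc01g010240.2), a member of the CRABS CLAW branch known from carpels and nectaries in Arabidopsis, was the tested YABBY gene that did not pass. It had 69.9 and 104 in lfs and 209 and 195 in WT (log2 -1.23, SE 0.49, adjusted p = 0.15). CRCb had 1.01 and 0 in lfs and 5.39 and 6.93 in WT and was not tested, and INO, an ovule YABBY in Arabidopsis, had no read in any library.

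LYRATE (LYR, Solyc05g009380.2), a JAGGED-type zinc finger gene that promotes growth of the leaf blade, had 3.04 and 3.25 in lfs and 798 and 830.1 in WT. The lfs values were near the limit of detection and the WT values were not (259-fold lower, log2 -7.62, SE 0.46, adjusted p = 0.00035). Solyc03g118770.2 (remembered as LAM1, a WOX gene of blade outgrowth in Nicotiana) had 5.06 and 3.25 in lfs and 136 and 123 in WT, a log2 change of -4.68. Solyc09g010840.1 (remembered as PHAN, a MYB gene of leaf polarity) changed less, with 4490.1 and 4572 in lfs and 10506 and 11705 in WT (log2 -1.29, SE 0.19, adjusted p = 0.0064). Solyc05g007870.1 (remembered as TF) also fell, by 0.83 on the log2 scale.

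HD-ZIP III genes, which specify the upper side of the leaf and the meristem centre, fell in 2 of 6 members. Over all tested genes 5.29% were called lower. Solyc11g069470.1 (remembered as REV) had 2584 and 2388 in lfs and 4911 and 4918 in WT (log2 -0.98, SE 0.15, adjusted p = 0.0076). Solyc02g069830.2 had 1938 and 2132 in lfs and 3676 and 3969 in WT, also without overlap. The other 4 did not pass, with log2 changes from -0.52 to 0.33. Of the 4 genes of the trans-acting siRNA pathway, which sets leaf polarity through ARF3 and ARF4, none passed in limma or in edgeR, and 1, DCL4, had an unadjusted p under 0.05. DCL4 had 1424 and 1651 in lfs and 2044 and 2097 in WT (log2 -0.43, adjusted p = 0.090). AGO7 (log2 -1.39, adjusted p = 0.18) had 238 and 462 in lfs and 834 and 915 in WT.

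LANCEOLATE (LA, Solyc07g062680.1), the TCP gene that times leaf maturation, had 369 and 352 in lfs and 434 and 502 in WT, below WT but not past the test (adjusted p = 0.20). Of the 12 leaf calls, 7 held whichever lfs or WT library was left out, those of the 6 YABBY genes and LYR. The other 5 were lost in at least 1 of those fits, with adjusted p from 0.0503 to 0.143. Of these, Solyc11g069470.1 and Solyc03g118770.2 were lost without WT replicate 1 or 2. Solyc02g069830.2 was lost without lfs replicate 1 or WT replicate 1 or 2, Solyc09g010840.1 without WT replicate 2 or lfs replicate 1, and Solyc05g007870.1 whichever of the 4 lfs and WT libraries was left out.

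**Figure D2:**
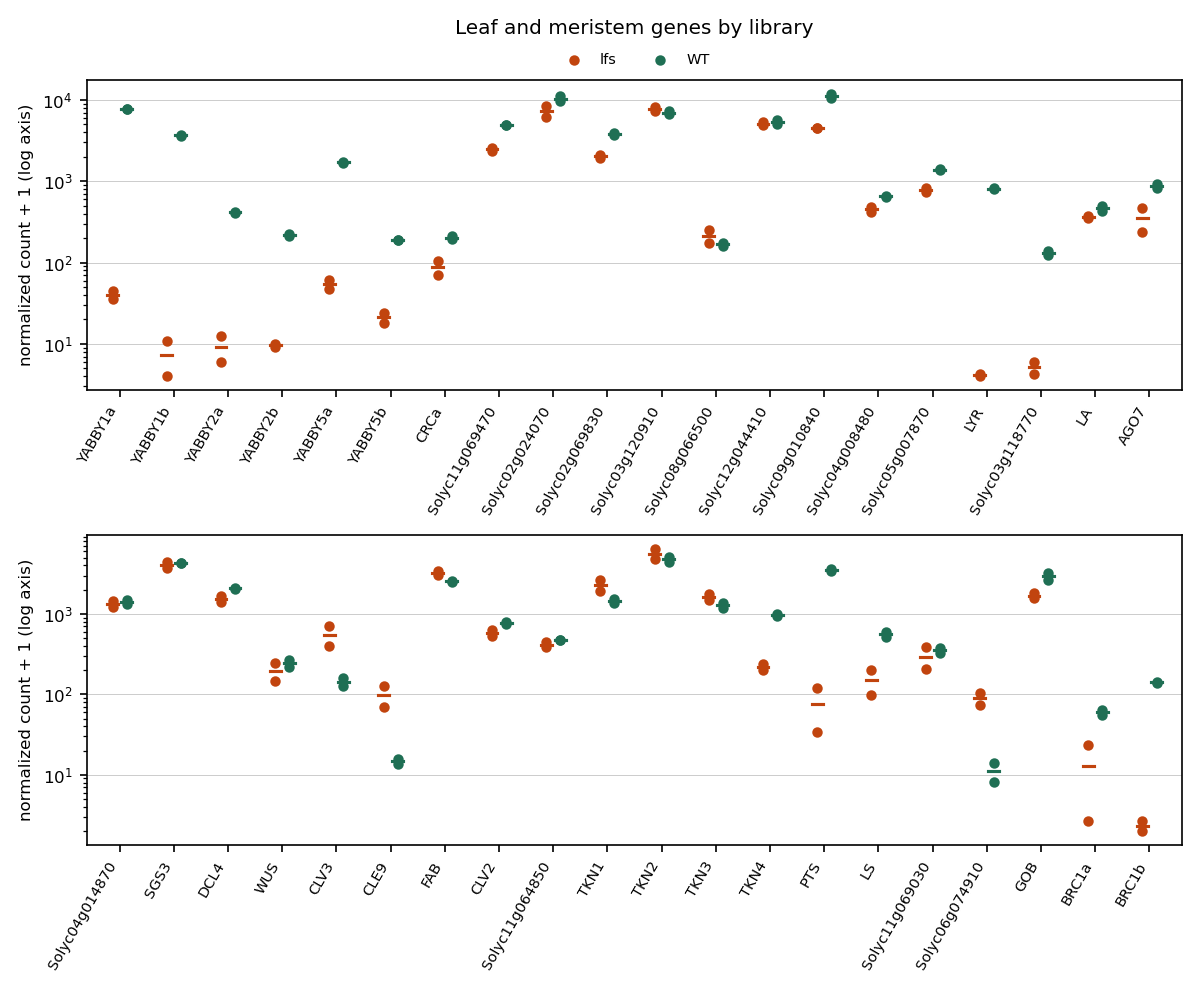
Normalized count + 1 (log axis) of the tested leaf genes (upper panel and the first 3 columns of the lower) and meristem genes (rest of the lower panel), with 1 point per lfs or WT library and a bar at the mean. The lfs points of 6 YABBY genes and LYR lie far under the WT points, whereas CLV3, CLE9 and Solyc06g074910 lie above them.

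All 17 meristem genes were tested, and 7 were called, 3 higher and 4 lower. Over all tested genes 14.2% were called, 8.9% higher and 5.29% lower. Stem cell signalling genes split: the CLE peptide genes rose while the homeobox gene they restrain did not pass the test. Of the 6 genes of this family 2 were called higher, against 8.9% of all tested genes. CLV3 (Solyc11g071380.1), whose peptide limits stem cell number, had 400.1 and 706 in lfs, 558 and 445 in TIBA, and 127 and 157 in WT. Both lfs values exceeded both WT values (3.90-fold higher, log2 1.91, SE 0.29, adjusted p = 0.0072). CLE9 (Solyc06g074060.1), a related peptide gene, had 67.9 and 125 in lfs, 64.5 and 65.8 in TIBA, and 12.6 and 14.7 in WT. It was 7.07-fold higher in lfs than in WT (log2 2.67, adjusted p = 0.0066). Both calls were lost without WT replicate 1.

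WUS (Solyc02g083950.2), which maintains the stem cells, had 147 and 242 in lfs and 269 and 218 in WT. The groups overlapped (log2 -0.36, SE 0.36, adjusted p = 0.56). FAB (Solyc04g081590.2), the CLAVATA1-type receptor gene, had 3039 and 3367 in lfs and 2585 and 2479 in WT and did not pass (log2 0.34, adjusted p = 0.36), and neither did CLV2 (log2 -0.41) or Solyc11g064850.1 (log2 -0.20).

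Among the KNOX genes, the 3 that did not pass the test had log2 changes from 0.21 to 0.64. TKN2 (Solyc02g081120.2), the main meristem KNOX gene of tomato, had 4820.3 and 6362 in lfs and 4419 and 5160.3 in WT, with overlap (adjusted p = 0.54). TKN1 (Solyc04g077210.2) had 2651 and 1921 in lfs and 1363 and 1536 in WT, above WT but not past the test (adjusted p = 0.090).

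The other 2 KNOX genes fell, of 5 tested, against 5.29% of all tested genes called lower. TKN4 (Solyc01g100510.2) had 239 and 202 in lfs and 935 and 993 in WT (log2 -2.13, SE 0.18, adjusted p = 0.00091), a call that held in each left-out fit. PTS (Solyc06g072480.1), a KNOX gene without a homeodomain that alters leaf complexity, had 33.4 and 118 in lfs and 3417 and 3616 in WT, 46.5-fold lower (log2 -5.78, SE 0.85, adjusted p = 0.0064). Its log2 change was -4.89 without lfs replicate 1 and -6.67 without replicate 2, and its call was lost without lfs replicate 1, WT replicate 1 or WT replicate 2.

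Boundary and axillary genes went in both directions, with 1 higher and 2 lower of 6. Over all tested genes 8.9% were called higher and 5.29% lower. BRC1b (Solyc06g069240.1), a TCP gene that restrains axillary buds, had 1.01 and 1.63 in lfs, 3 reads in all, and 138 and 141 in WT. The ratio was 103-fold lower in lfs (exact 95% interval 35.0 to 504, counting error only; adjusted p = 0.0016). BRC1b reached the minimum count only with the WT libraries, so its fall is no result about the group. LATERAL SUPPRESSOR (LS, Solyc07g066250.1), a GRAS gene needed to start axillary meristems, had 98.3 and 200 in lfs and 517 and 601 in WT (log2 -1.98, SE 0.38, adjusted p = 0.016).

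Solyc06g074910.2 (remembered as C, Potato leaf, a MYB gene) went the other way, with 103 and 72.4 in lfs and 7.18 and 13 in WT (log2 3.03, SE 0.62, adjusted p = 0.020). Its WT values alone did not reach the minimum count in 2 libraries, so its rise is no result about the group either. Another MYB gene on the list, Solyc11g069030.1 (remembered as BL), had 206 and 381 in lfs and 327 and 378 in WT, with overlap. GOBLET (GOB, Solyc07g062840.2), the NAC boundary gene, had 1567 and 1812 in lfs and 2651 and 3188 in WT, below WT but not past the test (adjusted p = 0.093). BRC1a had 22.3 and 1.63 in lfs and 53.9 and 63.3 in WT (adjusted p = 0.084). The LS call was lost without lfs replicate 1 or WT replicate 1 or 2, and that of Solyc06g074910.2 whichever of the 4 lfs and WT libraries was left out; of the 7 meristem calls, TKN4 and BRC1b held in each of these fits.

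Flower genes went in both directions. Of 34 listed, 20 were tested, and 7 rose and 8 fell, with a median log2 change of 0.00. Of the 7, 5 had under 10 normalized counts in both WT libraries and could be tested only through the other groups. The 7 that rose were MADS-box genes of the A-type and FRUITFULL, SEPALLATA, and C- and D-class families. Because of those 5, the number and direction of the rises are no result about these families. All 6 tested inflorescence genes fell. Of these, S reached the minimum count only with the WT libraries, where it was high, so its fall is no result about the family. Over all tested genes 8.9% were called higher and 5.29% lower. The 14 not tested included SFT, the tomato florigen gene, which had 0 and 1.63 in lfs and no read in WT.

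FALSIFLORA (FA, Solyc03g118160.1), the tomato LEAFY gene, had 630.0 and 1389.5 in lfs, 3394 and 3606 in TIBA, and 3730.0 and 3744 in WT. Both lfs values were below all the others (3.70-fold lower than WT, log2 -2.0, SE 0.32, adjusted p = 0.0090), though the call was lost without WT replicate 1 or 2. The BLADE-ON-PETIOLE genes act at organ bases and with TMF in delaying flower identity. BOP2 (Solyc10g079460.1) had 49.6 and 82.9 in lfs and 582 and 615 in WT (log2 -3.20, SE 0.35, adjusted p = 0.0021). BOP3 (Solyc10g079750.1) had 281 and 178 in lfs and 863 and 916 in WT, and Solyc04g040220.2 (remembered as BOP1) had 114 and 279 in lfs and 647 and 725 in WT.

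The 3 BOP genes were lower in both lfs libraries with no overlap, but the log2 change of Solyc04g040220.2, -1.93, was -1.29 without lfs replicate 1 and -2.57 without replicate 2. S (Solyc02g077390.1), a WOX gene of inflorescence branching, had 5.06 and 12.2 in lfs and 52.1 and 60.7 in WT (log2 -2.68, SE 0.63, adjusted p = 0.033). Solyc09g090180.1 (remembered as TMF) had 2032 and 2105 in lfs and 3140.2 and 3549 in WT, a fall of 0.69 on the log2 scale. SSP (Solyc02g083520.2), a bZIP partner of florigen, had 917 and 1139.9 in lfs and 2989 and 2841 in WT (log2 -1.51, SE 0.15, adjusted p = 0.0015). The calls of S and Solyc09g090180.1 were lost whichever of the 4 lfs and WT libraries was left out, and that of Solyc04g040220.2 without lfs replicate 1 or WT replicate 1 or 2.

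Solyc05g056620.1 (remembered as MACROCALYX, an A-type gene, although the RefSeq table places that symbol beside RIN) had 307 and 820.4 in lfs, 102 and 53.9 in TIBA, and no read in WT. It was at least 213-fold higher in lfs than in WT (adjusted p = 0.00035), a bound of 310.0-fold without lfs replicate 1 and of 116-fold without replicate 2. FUL1 (Solyc06g069430.2), a FRUITFULL gene, had 1351 and 1337 in lfs and 22.4 and 60.7 in WT, 32.3-fold higher (log2 5.14, SE 0.42, adjusted p = 0.00075). The lfs libraries were nearly equal and the WT libraries were not, so the log2 change was 4.45 without WT replicate 1 and 5.84 without replicate 2.

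MBP20 (Solyc02g089210.2), of the same FRUITFULL group, had 215 and 427 in lfs, 154 and 200 in TIBA, and 3.59 and 0 in WT, where 4 reads were found. Its log2 change over WT was 7.15 (SE 0.71, adjusted p = 0.0015), with 8.25 without WT replicate 1 and 6.05 without replicate 2. FUL2 had 139.8 and 288 in lfs and 88.9 and 102 in WT, above WT but not past the test (adjusted p = 0.12). MBP20 and Solyc05g056620.1, like TAG1 below, also reached the minimum count without a WT library.

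The C- and D-class genes specify stamens, carpels and ovules. TAG1 (Solyc02g071730.2), the tomato AGAMOUS gene, had 144 and 1137 in lfs, 0 and 1.20 in TIBA, and no read in WT. The lfs libraries differed widely from each other while both stood apart from the rest. It was at least 242-fold higher in lfs than in WT (adjusted p = 0.0025), a bound of 430-fold without lfs replicate 1 and of 54.3-fold without replicate 2. MBP3 (Solyc06g064840.2), a D-class gene of ovules and seed, had 1764 and 3034 in lfs and 60.1 and 87.5 in WT, 32.5-fold higher (log2 4.98, SE 0.40, adjusted p = 0.00073). TAGL1 and AGL11, the other members, had at most 3.25 in any library.

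Of the SEPALLATA genes, which act with all other floral MADS genes, RIN and TM5 were tested. Both reached the minimum count without a WT library, through libraries in which they were high, so their number and direction are no result about the family. RIN (Solyc05g012020.2), known from fruit ripening, had 33.4 and 32.5 in lfs and 0.898 and 0 in WT, where 1 read was found. The ratio was 74.7 (exact 95% interval 13 to 2989, counting error only; adjusted p = 0.0044). TM5 (Solyc05g015750.2) had 16.2 and 255 in lfs and no read in WT, at least 51.3-fold higher (adjusted p = 0.018), a bound of 96.5-fold without lfs replicate 1 and of 6.12-fold without replicate 2. Its call was lost without lfs replicate 2 or WT replicate 1 or 2. The other 4 SEPALLATA genes did not reach the minimum in 2 libraries, although J2 had 9.12 and 32.5 in lfs and 3.59 and 0.867 in WT.

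TM6 (Solyc02g084630.2), the only B-class gene of petals and stamens that was tested, did not pass. It had 609 and 511 in lfs and 650.0 and 591 in WT, with overlap (log2 -0.15, adjusted p = 0.56). The 3 other B-class identifiers had between 0 and 3.04 in all libraries. JOINTLESS (J, Solyc11g010570.1), a MADS gene of the pedicel joint and inflorescence, had 1346 and 2084 in lfs and 3036 and 3313 in WT and missed the threshold (adjusted p = 0.061). Solyc01g105800.2 (remembered as MBP24, a close relative of J) fell, with 75 and 97.6 in lfs and 175 and 212 in WT (log2 -1.16, SE 0.25, adjusted p = 0.023), a call lost without lfs replicate 1 or WT replicate 1 or 2. Of the 15 flower calls, 9 held whichever lfs or WT library was left out: BOP2, BOP3, SSP, Solyc05g056620, FUL1, MBP20, RIN, TAG1 and MBP3.

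**Figure D3:**
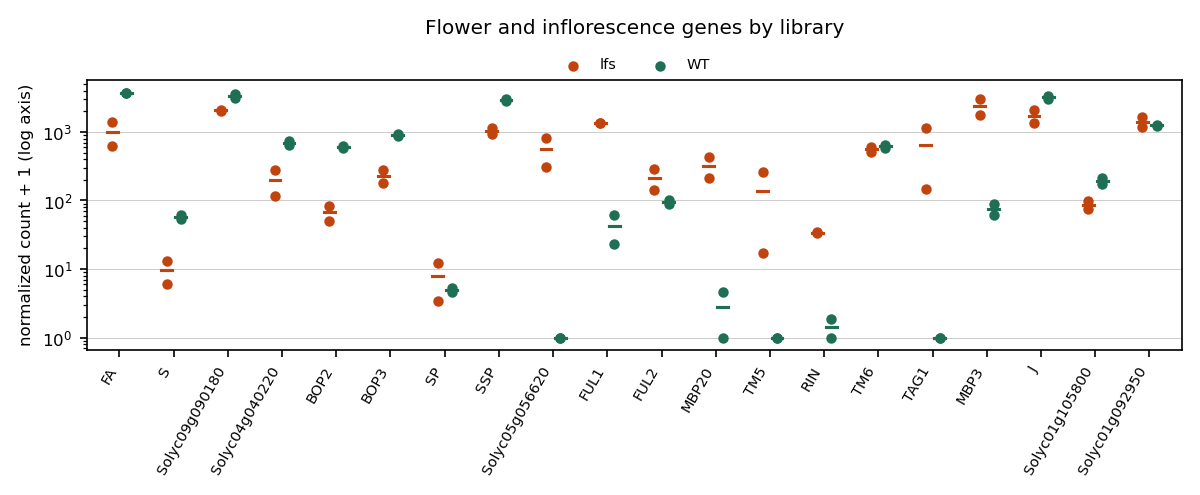
Normalized count + 1 (log axis) of the 20 tested flower and inflorescence genes, with 1 point per lfs or WT library and a bar at the mean; a point at 1 is a library without a read. FUL1, MBP20, MBP3, TAG1, TM5, RIN and Solyc05g056620 lie above WT in both lfs libraries, and FA, SSP and the BOP genes below.

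Auxin genes changed in both directions, 8 higher and 8 lower of 45 tested (51 listed), with 17 above, 17 below and 11 overlapping; the median log2 change was 0.08. Over all tested genes 33.6% lay above and 33.1% below, so the shares without overlap were near the background. Of the tested auxin genes 35.6% were called, against 14.2% of all tested genes. The Aux/IAA genes, repressors that are themselves induced by auxin, held most of the rises. Of 16 tested, 10 had both lfs values above both WT values and 3 below. Of the 16, 5 rose and 1 fell, and the median log2 change was 1.00. IAA2 had under 10 normalized counts in both WT libraries, and IAA29 had 9.53 in WT replicate 2. Both could be tested only with libraries of other groups, where they were high, so their rises are no result about the family. Over all tested genes 33.6% lay above, 33.1% below, 8.9% were called higher and 5.29% lower, and the median was -0.001.

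IAA26 (Solyc03g121060.2) had 5529 and 7068 in lfs, 3260.4 and 3653 in TIBA, and 535 and 737 in WT. The groups lay far apart (9.91-fold higher in lfs than WT, log2 3.31, SE 0.20, adjusted p = 0.00035). IAA16 (Solyc01g097290.2) had 1208 and 1185 in lfs, 1348 and 1393 in TIBA, and 407 and 455 in WT (log2 1.47 over WT, SE 0.13, adjusted p = 0.00097). IAA2 (Solyc06g084070.2) had 38.5 and 63.4 in lfs, 33.1 and 58.7 in TIBA, and 5.39 and 4.33 in WT. IAA29 (Solyc08g021820.2) had 61.8 and 70.7 in lfs, 67.0 and 35.9 in TIBA, and 11.7 and 9.53 in WT. IAA7 (Solyc06g053830.2) had 406 and 381 in lfs, 206 and 280 in TIBA, and 149.9 and 183 in WT. IAA15 (Solyc03g120390.2) was the member that fell, with 58.7 and 53.7 in lfs, 254 and 302 in TIBA, and 120.3 and 149 in WT (log2 -1.24, SE 0.25, adjusted p = 0.020). The calls of IAA7, IAA15 and IAA29 were lost whichever of the 4 lfs and WT libraries was left out, and that of IAA2 without WT replicate 1 or 2. IAA9 (Solyc04g076850.2), whose loss simplifies tomato leaves, overlapped between groups (log2 -0.06, adjusted p = 0.85).

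The ARF genes, which encode the DNA-binding partners of Aux/IAA proteins, gave 1 rise and 3 falls among 13. Over all tested genes 8.9% were called higher and 5.29% lower. ARF4 (Solyc11g069190.1) had 3098 and 2695 in lfs, 7662 and 7054 in TIBA, and 7084 and 7552 in WT. Both lfs values were below all others (2.53-fold lower than WT, log2 -1.34, SE 0.14, adjusted p = 0.0020).

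ARF3 (Solyc02g077560.2), which acts beside ARF4 on the lower leaf side in Arabidopsis, had 6885 and 6522 in lfs and 6576 and 6617 in WT, with overlap (log2 0.02, adjusted p = 0.93). ARF5 (Solyc04g081240.2), the MONOPTEROS gene that starts organs at auxin maxima, had 5055 and 6473 in lfs and 9376 and 10338 in WT (log2 -0.78, SE 0.18, adjusted p = 0.028). The ARF5 call was lost without lfs replicate 1 or WT replicate 1 or 2, whereas that of ARF4 held throughout.

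Transport and conjugation genes changed singly. PIN5 (Solyc01g068410.2), whose Arabidopsis counterpart is a carrier of internal membranes, had no read in lfs, 132 and 276 in TIBA, and 101 and 27.7 in WT. It was at least 23.6-fold lower in lfs than in WT (adjusted p = 0.0029), a bound of 10.1-fold without WT replicate 1 and of 37.0-fold without replicate 2. PIN4 (Solyc05g008060.2) had 201 and 81.3 in lfs and 19.7 and 41.6 in WT (log2 2.12, SE 0.53, adjusted p = 0.039; 1.47 without lfs replicate 1 and 2.76 without replicate 2). The call of PIN4 was lost without lfs replicate 1 or WT replicate 1 or 2.

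LAX2 (Solyc01g111310.2), an influx carrier, had 168 and 405 in lfs, 418 and 554 in TIBA, and 1814 and 1756 in WT (6.23-fold lower than WT, log2 -2.77, SE 0.37, adjusted p = 0.0047; -2.14 without lfs replicate 1 and -3.40 without replicate 2). LAX1 (Solyc09g014380.2) rose slightly, with 1169 and 1211 in lfs and 756 and 721 in WT (log2 0.69, adjusted p = 0.019). Both tested GH3 genes, which conjugate auxin to amino acids, fell, against 5.29% of all tested genes called lower. GH3.2 reached the minimum count only with the WT libraries, so the number of falls is no result about the family. GH3.4 (Solyc02g092820.2) had 358 and 675 in lfs and 2189 and 2183 in WT (log2 -2.15, SE 0.27, adjusted p = 0.0037), and GH3.2 (Solyc01g107390.2) had 7.09 and 14.6 in lfs and 85.3 and 46.8 in WT (adjusted p = 0.048). The auxin synthesis gene FZY1 (Solyc06g065630.2) had 390.0 and 415 in lfs and 345 and 346 in WT (log2 0.22, adjusted p = 0.64). The calls of LAX1 and GH3.2 were lost whichever of the 4 lfs and WT libraries was left out. Of the 16 auxin calls, 7 held in each such fit, among them those of PIN5, LAX2, GH3.4, IAA16, IAA26 and ARF4.

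**Figure D4:**
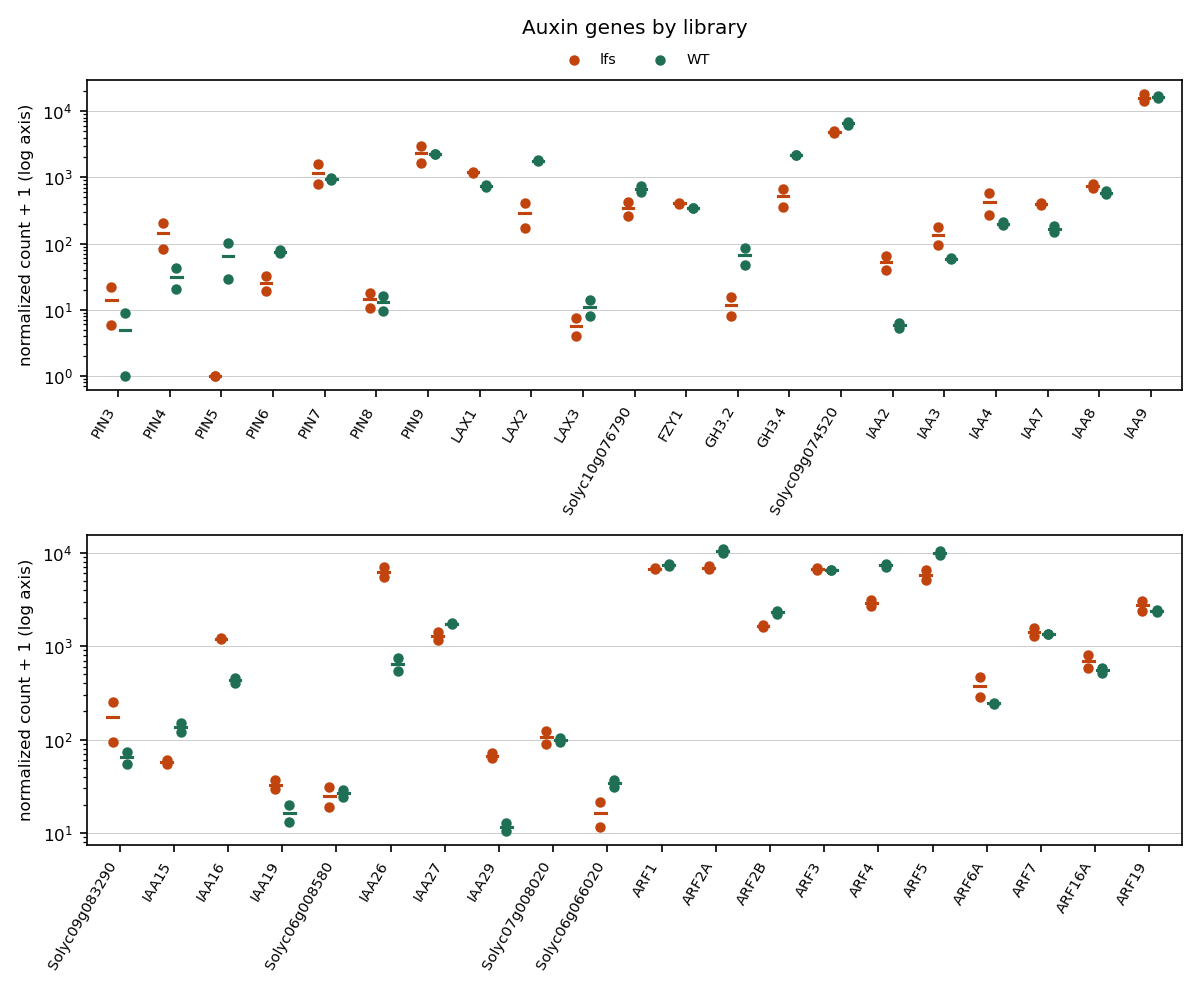
Normalized count + 1 (log axis) of 41 tested auxin genes, with 1 point per lfs or WT library and a bar at the mean; PIN5 at 1 has no read in lfs. IAA26, IAA16, IAA2, IAA29 and IAA7 lie above WT in both lfs libraries, and ARF4, LAX2, GH3.4 and IAA15 below.

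Markers of other tissue also changed, in both directions, and their part in the results was not tested. Of 8 tested photosynthesis genes, 4 rose and none fell, and 6 had both lfs values above both WT values, against 8.9% called higher and 33.6% above over all tested genes. Their summed level over 9 genes was 50048 and 30652 in lfs, 45429 and 66003 in TIBA, and 19727 and 21952 in WT. Such a sum is weighted to the genes with most reads and includes genes that were not called, so it does not summarise the 4 rises. RBCS3A (Solyc02g085950.2), a Rubisco small subunit gene, had 4654 and 1641 in lfs and 408 and 456 in WT (log2 2.68, SE 0.47, adjusted p = 0.012; 1.93 without lfs replicate 1 and 3.43 without replicate 2). Of the 9, 1, Solyc02g071030.1, had no read in any library. Of 5 epidermal genes 1 passed the test, against 14.2% of all tested genes. It was Solyc03g116610.2 (remembered as SHN1), which was lower in lfs (4.05 and 5.69, against 47.6 and 52.9 in WT). The summed level of the epidermal genes was 8117 and 6700 in lfs and 8989 and 8652 in WT.

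All 4 genes of dividing cells had both lfs values below both WT values, and 2 of them, CDKA1 and CYCD3, fell (log2 -0.54 and -0.62); over all tested genes 33.1% lay below and 5.29% were called lower. Their summed level was 12178 and 15803 in lfs and 21792 and 22602 in WT. None of the 7 calls among these 17 tested markers held in every left-out fit: RBCS1 was lost without WT replicate 1, RBCS3A without WT replicate 1 or 2, and the other 5 without lfs replicate 1 or WT replicate 1 or 2, CDKA1 and CYCD3 also without lfs replicate 2.

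The TIBA pin likewise lacked primordia, so its difference from lfs does not use the WT levels, although the estimate of spread draws on all 3 groups. Limma called 912 of all tested genes between lfs and TIBA (4.6%) and 21 of the 105 listed genes (20.0%), 12 higher and 9 lower in lfs. In fits added after seeing the data, the 21 became 8 with lfs replicate 2 left out and 32 with TIBA replicate 1 left out. MBP3, at 1764 and 3034 in lfs, had 39.7 and 20.3 in TIBA (log2 6.29, SE 0.40, adjusted p = 0.00091). FUL1 had 1351 and 1337 in lfs and 75.3 and 68.2 in TIBA (log2 4.21, adjusted p = 0.0053), a call lost without lfs replicate 2 (adjusted p = 0.064).

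CRCa had 69.9 and 104 in lfs and 0 and 1.20, a single read, in TIBA (adjusted p = 0.0025), and TAG1, with the values given above, was called as well (adjusted p = 0.0085) but not without lfs replicate 2 (adjusted p = 0.058). Solyc04g040220.2 had 114 and 279 in lfs and 16.5 and 15.6 in TIBA. The genes lower in lfs than in TIBA included PIN5, YABBY5b, LYR, IAA15, FA, ARF4, SSP and Solyc01g105800.2. ARF4 differed by log2 -1.35 (SE 0.14, adjusted p = 0.0060). FA had 630.0 and 1389.5 in lfs and 3394 and 3606 in TIBA (log2 -1.90, SE 0.32, adjusted p = 0.025), and YABBY5b 23.3 and 17.1 in lfs and 223 and 285 in TIBA (log2 -3.60, SE 0.29, adjusted p = 0.0021). The calls of 7 genes held whichever of the 6 libraries was left out, among them MBP3, CRCa, Solyc04g040220.2, SSP, PIN5 and YABBY5b. The other 14 were each lost in at least 1 fit, FA without TIBA replicate 2 or WT replicate 1 or 2, and ARF4, LYR and IAA15 without lfs replicate 2.

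**Figure D5:**
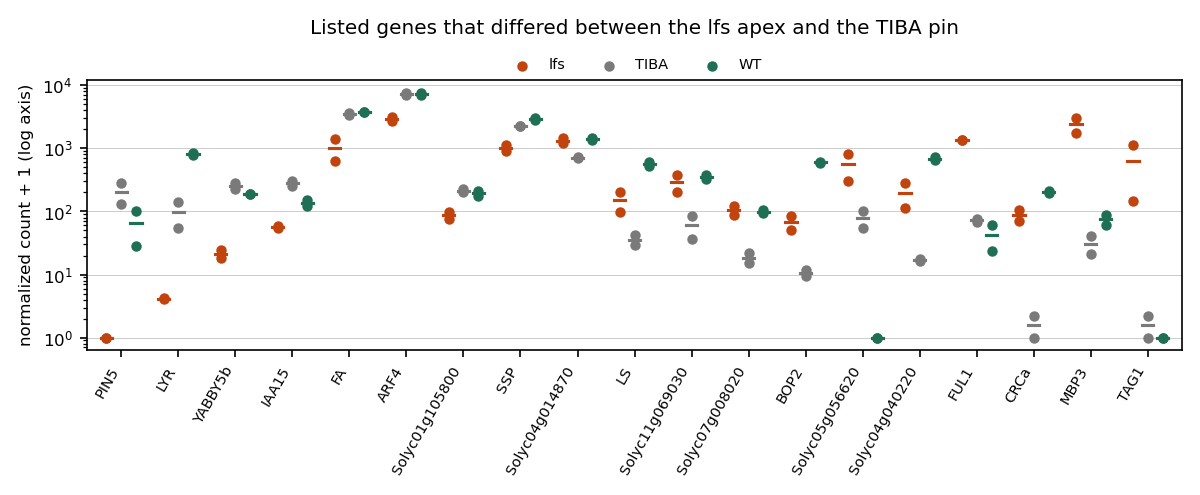
Normalized count + 1 (log axis) of 19 listed genes called between lfs and TIBA, with 1 point per lfs, TIBA or WT library and a bar at the mean. ARF4, FA and SSP are low in lfs alone, whereas MBP3, FUL1 and TAG1 are high in lfs alone.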

How the data were processed

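RNA was measured in 6 libraries, 2 each of lfs, TIBA and WT apices. Per the submitters' processing notes, TopHat2 (2.0.10), HTSeq (0.6.1p1) and DESeq2 (1.6.3) were used. The sources used here give no build, annotation or strand setting, so antisense or overlapping genes cannot be told apart. Per the file headers, the deposited signal is DESeq2-normalized counts, and the deposited table also holds the authors' log2 changes between groups with their p-values, raw and adjusted. All 208332 values (100%) were whole reads within 0.001 reads, so reads were recovered. No sample column was unused.

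Genes with at least 10 normalized counts in 2 libraries (19807 of 34722) were tested with limma (3.58.1, R 4.3.3) on log2(count + 1), with trend and robust moderation and the 3 groups fitted together; this understates the change of genes with few reads. On the recovered reads, edgeR (4.0.16) called 2744 genes and DESeq2 (1.42.0) 3736. The fitting script was tested on simulated data. Against 0 reads the fold is at least that over 3 reads per library; intervals for 1 to 3 reads are exact 95% intervals. Both cover counting error only.

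The members and lists were chosen with earlier results of these data known. Genes of the 4 lists could be named; outside them, the 2 identifiers per direction with the largest called log2 change among genes with a mean of at least 50 were named. Alternatives covered the pseudocount, minimum, scaling, tool, groups fitted, threshold, replicate block and each left-out library. Some listed genes are counted but not reported here by name. No sequences are shown.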

Additional observations from a re-analysis of the deposited data

How the results depend on the processing

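Of the results compared across settings, the number of genes called, 2810, was 4494 with only the lfs and WT libraries fitted and 972 at an adjusted p under 0.01, and lay between 562 and 4428 with 1 library left out. The number of listed genes called, 50, lay between 26 and 62 with 1 library left out. The LFS change kept its call in every setting. Non-overlapping genes, 13201, numbered 15526 to 17489 without 1 lfs or WT library; with 1 library in a group the condition is weaker by construction. The listed genes called between lfs and TIBA, 21, lay between 8 and 32; leaving out a library was added there after seeing the data. The lone library of a group was assumed to vary like the other groups.

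Deviations of same-numbered libraries correlated at 0.015 between lfs and WT, -0.14 between lfs and TIBA and -0.051 between TIBA and WT, which gives no sign of pairing; the labels do not say what a number shares. The replicate block gave 2092 genes called and 46 listed genes called against WT (18 between lfs and TIBA). It ended the calls of Solyc02g077390.1, Solyc09g090180.1, PIN4, GH3.2, Solyc02g070980.1 and CDKA1; S (Solyc02g077390.1) and GH3.2 also missed the threshold with a pseudocount of 0.5 (adjusted p = 0.055 and 0.063).

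None of the 61 called genes that were followed gene by gene changed direction in any setting run. In the fits with a library left out this was fixed in advance, because the lfs and WT values of called genes did not overlap. Among those not called, PIN9 turned to 0.025 with edgeR and 0.026 with DESeq2. With 1 lfs or WT library left out, among the genes reported here the log2 change crossed 0 for 19 gene and library pairs, and its range over those fits was -0.717 to 0.0016 for WUS, -0.770 to 0.12 for Solyc11g069030.1, -0.138 to 0.0065 for Solyc12g044410.1, -0.214 to 0.0379 for SGS3 and up to 0.0513 for Solyc04g014870.2. In flower genes it was -0.52 to 1.295 for SP and -0.10 to 0.413 for Solyc01g092950.2. In auxin genes it was -0.25 to 0.742 for PIN7, -0.22 to 0.539 for PIN8, -0.436 to 0.40 for PIN9, -0.235 to 0.12 for IAA9, -0.490 to 0.24 for Solyc06g008580.2, -0.15 to 0.320 for Solyc07g008020.2, -0.0162 to 0.0617 for ARF3 and -0.0784 to 0.196 for ARF7. In the marker genes it was -0.15 to 0.714 for Solyc02g070970.1, up to 0.0863 for CD2 and -0.27 to 0.421 for CER6. The cause was not tested. With 2 libraries a group, a gene not called is not shown to be alike in lfs and WT.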
